A study of Rattus norvegicus with 12 samples.

Results

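The livers of rats that ate naproxen for 7 days were compared with the livers of rats on a control diet. Sprague Dawley rats, housed singly under a 12 h light-dark cycle, received either a diet with naproxen at 400 mg/kg or the control diet, and food and water were freely available. The comparison used 8 of the 12 arrays of the series, chosen by their titles: 4 naproxen arrays and 4 control arrays, each from 1 liver of a separate biological replicate. The remaining 4 arrays came from rats fed NO-naproxen, a nitric oxide-donating derivative of the drug, at 550 mg/kg diet, and entered the estimate of the spread and the mean signals that set the background bound and the brightness bins. Sex, age and the hour at which the livers were taken were not given in the labels used here. Total RNA of whole liver was hybridised to Affymetrix whole-transcript arrays, so fewer cells of a type and less RNA per cell cannot be told apart.

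Naproxen is a nonsteroidal anti-inflammatory drug that blocks both cyclooxygenases, the enzymes that turn arachidonic acid into the precursor of prostaglandins. The liver clears such drugs through cytochromes P450 and conjugating enzymes, which nuclear receptors can induce. Hepatocytes also carry a circadian clock, in which the activators Clock and Bmal1 drive their own repressors of the Per, Cry and Nr1d families, and feeding time, glucocorticoid hormone and cyclic AMP reset it. Bile acid synthesis, fasting metabolism and many immediate early genes follow that daily rhythm.

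The values that open this account belong to named genes that met the study's criterion under each of 7 treatments of array spread, described below. The G protein regulator Rgs16, the uridine phosphorylase Upp2, the zinc finger factor Zbtb16, the clock repressor Nr1d1 and the early-response factor Egr1 measured 2.67-fold to 4.60-fold higher. The clock repressor Per2, the MAP kinase phosphatase Dusp1, the mitochondrial carrier Slc25a25, the taurine enzyme Csad and Cyp7a1, which limits the rate of bile acid synthesis, measured 2.08-fold to 2.67-fold lower. No probe set passed limma's test after Benjamini-Hochberg adjustment over all 19418 (0%, smallest adjusted p = 0.245), while 2458 had an unadjusted p under 0.05. All single-gene values below are therefore measured differences, on the scale of log2(intensity + 16), that did not pass the adjusted threshold in the limma fit of all arrays, and the sizes of low signals are understated on this scale.

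The selection that the series design names, an unadjusted p under 0.05 with a change of at least 1.5-fold, was met by 170 probe sets higher with naproxen (0.875% of all) and 965 lower (4.97%). Many of these were dim. Probe sets of olfactory and vomeronasal receptors, genes of the sense of smell, served as a gauge of background, and the 95th percentile of their mean signals was 6.44. Of all probe sets, 12048 or 62.0% lay above this bound. Among those, 135 were higher by the criterion (1.12%) and 466 lower (3.87%), which held 101 and 347 named genes. At an unadjusted p under 0.05 alone, 475 were higher (3.94%) and 897 lower (7.45%). All naproxen arrays lay above all control arrays for 328 of them (2.72%) and below for 197 (1.64%).

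The arrays differed in how far their signals spread. The interquartile range of log2 signal was 2.09, 2.37, 1.996 and 1.94 in control replicates 1 to 4 and 2.53, 2.22, 2.40 and 2.20 in naproxen replicates 1 to 4. Control replicates 3 and 4 were the narrowest, and control replicate 2 was as wide as the naproxen arrays. The mean was 2.10 ± 0.19 in controls and 2.34 ± 0.16 with naproxen (SD, n = 4), a difference of 0.24 that did not pass a 2-sided exact permutation test (p = 0.114, 0.229 after adjustment over 4 array measures, smallest possible p 0.0286). The median of the olfactory receptor probe sets was 5.22 ± 0.12 in controls and 5.08 ± 0.09 with naproxen (SD, n = 4), again with p = 0.114 in the exact permutation test. Control replicate 2 and naproxen replicate 1, both wide, had dimmer dim probe sets and brighter bright ones than the control mean. Naproxen replicate 3, wide at 2.40, had dimmer dim probe sets but no brighter bright ones. Its median over the brightest 10% of probe sets was 10.19, against a control mean of 10.21. In 10 equal bins of probe sets ordered by mean signal, the median log2 fold change ran from -0.21 in a dim bin (bin 3) to 0.15 in a bright one (bin 9), and with the interquartile range of each array as a covariate every bin lay between -0.064 and -0.00058.

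**Figure D1:**
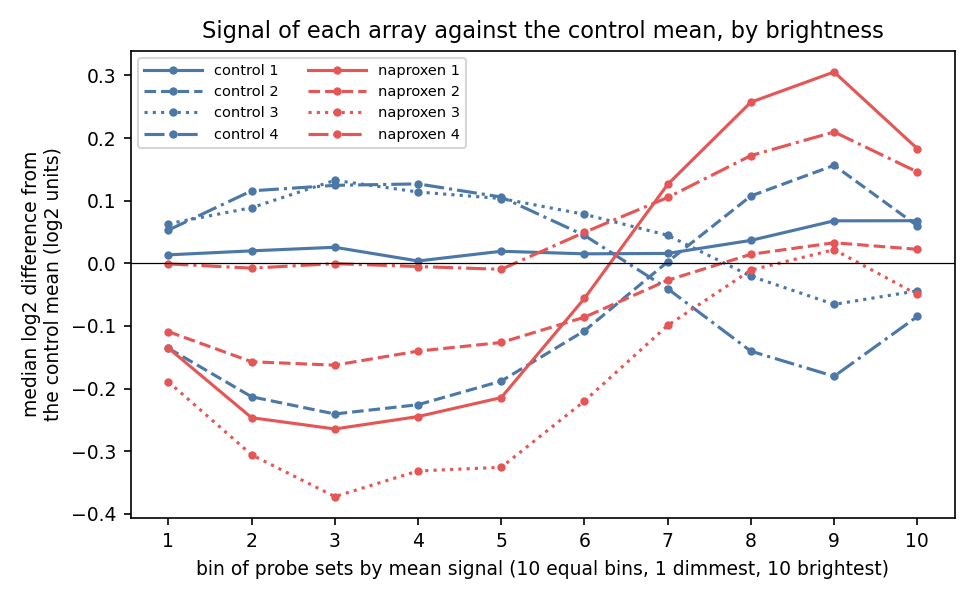
Median log2 difference of each array from the control mean (vertical axis, log2 units) in 10 equal bins of probe sets ordered by mean signal (horizontal axis, bin 1 dimmest to bin 10 brightest), with controls in blue and naproxen arrays in red. Control replicates 3 and 4 lie above 0 in the dimmer bins and below it in bin 9, and control replicate 2 follows the course of naproxen replicate 1 more closely than that of the other controls.

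The counts moved strongly with the way this spread was treated. With the spread as a covariate, 44 of the 135 higher and 19 of the 466 lower probe sets above background still met the criterion, and all of them kept their sign. The median log2 fold change of the higher ones was then 0.49 in place of 0.66, and that of the lower ones -0.29 in place of -0.70. Without control replicates 3 and 4, 34 of the higher and 26 of the lower met it. Quantile normalization kept 115 and 355, and median centring kept 135 and 224. Among all probe sets above background, 11.4% had an unadjusted p under 0.05, 5.15% with the spread as a covariate and 1.54% without the 2 narrowest arrays, where the median standard error grew from 0.20 to 0.25. The split between higher and lower calls was 135 to 466 as measured, 219 to 423 after quantile normalization and 360 to 228 after median centring. It was 234 to 513 after scaling the arrays to one spread and 75 to 79 with the spread as a covariate. The same covariate fitted on the 2 compared diets alone gave 157 to 76, and the olfactory receptor median as a covariate 157 to 53. Median centring moved the median of all probe sets from -0.03 to 0.08. Scaling to one spread moved the median of the brightest bin, bin 10, from 0.08 to -0.18, a shift that values of bright genes after this scaling include. The lower probe sets were the dimmer ones, with a median mean signal of 7.07 against 7.99 for the higher and 7.80 for all above background.

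**Figure D2:**
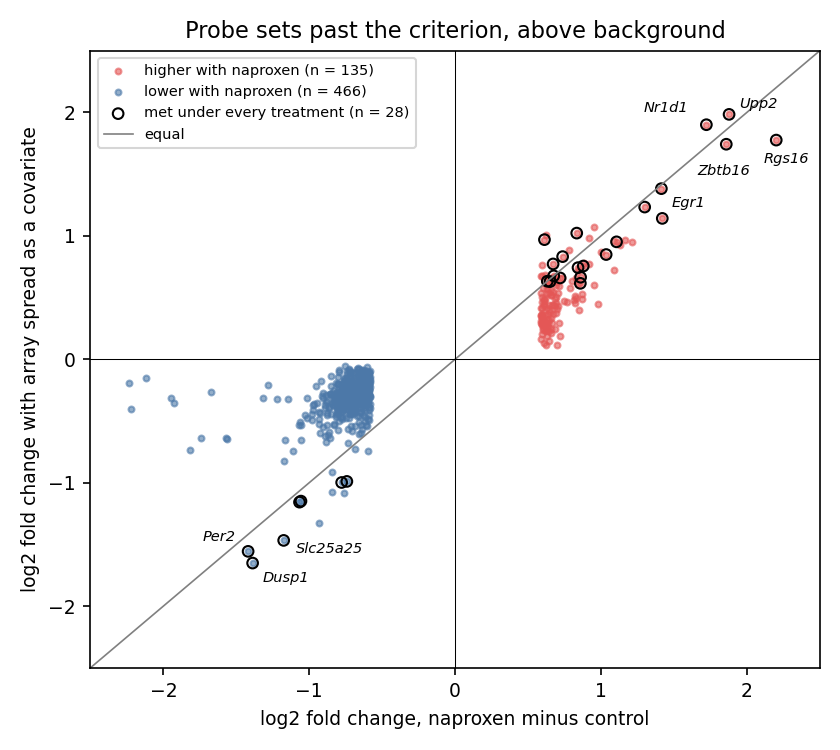
Log2 fold change with naproxen for the 601 probe sets above background that met the criterion, as measured (horizontal axis) and with array spread as a covariate (vertical axis), in log2 units. The 466 lower probe sets (blue) mostly lie closer to 0 on the vertical axis than the grey line of equal values, and the 28 that met the criterion under every treatment of array spread (black rings) lie near that line.

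Among the probe sets above background that met the criterion, the 10 lowest log2 fold changes ran from -2.23 to -1.56. All were more negative than that of Per2 and belonged to probe sets without a single gene symbol. With the spread as a covariate they ran from -0.74 to -0.15. In the lowest of them the controls measured 10.84, 7.38, 11.74 and 11.26 and the naproxen arrays 6.64, 8.84, 6.35 and 10.45. Control replicate 2 was the lowest control in all 10 and naproxen replicate 4 the highest naproxen array in all 10, and the groups overlapped in each. These are the widest control array and the narrowest naproxen array.

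A set of 28 probe sets, 21 higher and 7 lower, met the criterion as measured and under all 7 treatments of array spread and background, which were the 2 covariate fits on spread, a covariate of the olfactory receptor median, quantile normalization, median centring, scaling to one spread and leaving out control replicates 3 and 4. They made up 4.66% of the 601. The named ones were 21 genes, 14 higher and 7 lower, and for 15 of these the groups did not overlap. The treatments share the same arrays, so this count describes these 8 livers and is no further test. Hmgn2, Ccnb1, Slc25a25 and Stac3 are named from this set after their values were seen.

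**Figure D3:**
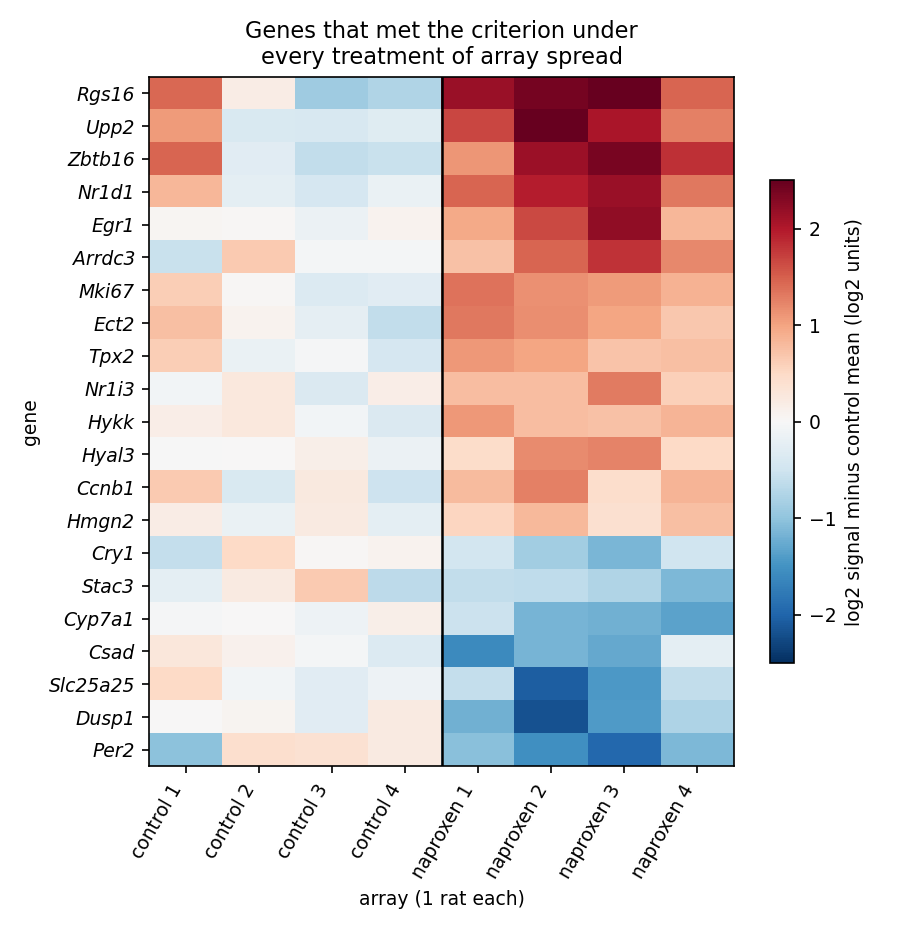
Log2 signal minus the control mean (colour, log2 units) in each control and naproxen array (columns) for the 21 named genes that met the criterion under every treatment of array spread (rows). Control replicate 1 shifts in the direction of the naproxen arrays for Rgs16, Upp2, Zbtb16, Nr1d1 and Per2, while for Egr1, Dusp1 and Cyp7a1 it sits with the other controls.

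Control replicate 1 stood apart from the other controls for Upp2, Per2 and Zbtb16. Upp2 measured 9.38 in it against 7.90 to 8.01 in the others, Per2 7.15 against 8.41 to 8.60 and Zbtb16 9.63 against 7.57 to 7.90. It was the control nearest to the naproxen mean for 10 of the 21 genes and for 30.3% of all probe sets above background. It did not stand apart across the array as a whole, where it was an outlier among controls for 0.672% of probe sets above background, against 2.67% for control replicate 2. Without it Rgs16, Zbtb16 and Per2 passed the adjusted threshold in limma (log2 fold changes of 2.68, 2.34 and -1.76, adjusted p = 0.0194, 0.0362 and 0.0362). Without control replicate 2 a pair of probe sets without a single gene symbol did. What set control replicate 1 apart in these genes was not tested.

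In the core clock, Nr1d1 (Entrez Gene 252917), the receptor REV-ERB alpha that represses Bmal1, measured 8.49, 7.42, 7.26 and 7.51 in control replicates 1 to 4 and 9.12, 9.62, 9.83 and 8.99 in naproxen replicates 1 to 4. All naproxen arrays lay above all controls, and the closest control was replicate 1. The log2 fold change was 1.72 ± 0.42 (SE, n = 4 per group), and 1.90 ± 0.47 with the spread as a covariate. Per2 (Entrez Gene 63840), which inhibits Clock and Bmal1 together with the cryptochromes, measured 7.15, 8.60, 8.55 and 8.41 in controls and 7.13, 6.64, 6.21 and 7.05 with naproxen. The groups did not overlap, but control replicate 1 and naproxen replicate 1 were nearly level. Its log2 fold change was -1.42 ± 0.31, and between -1.76 and -1.24 when each array was left out in turn. The cryptochrome Cry1 (Entrez Gene 299691) measured 8.54 to 9.63 in controls and had a highest value of 8.68 with naproxen, a log2 fold change of -0.74 ± 0.25 with overlapping groups, again through control replicate 1. Of 14 core clock genes above background 6 had a log2 fold change above 0, and 1 was higher and 2 lower by the criterion. The matching shares of all probe sets above background were 56.7%, 1.12% and 3.87%. The median of the list was -0.14, -0.02 after median centring and -0.22 with the spread as a covariate, against 0.05, 0.16 and -0.02 for all probe sets above background. With the covariate 4 of the 14 were above 0, and 1 was higher and 5 lower at an unadjusted p under 0.05 in limma. The matching shares of all probe sets above background were then 45.8%, 2.12% and 3.03%. The D-box factor Dbp, the activator Bmal1 and the mitotic kinase Wee1 had log2 fold changes of -0.34, 0.11 and -0.06, with unadjusted p of 0.15, 0.54 and 0.81 in limma; these 3 were picked after their values were seen because they are textbook rhythmic genes. Among 12 clock output genes the receptor Nr1i3 alone had a p under 0.05.

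The promoters of Nr1d1, Per2, Dusp1 and Slc25a25 are shown as examples. These genes are among the 21, and each holds a motif known from clock or cyclic AMP control. The sequences are the 250 bases before the annotated start, from RefSeq on build GRCr8, 5′ to 3′ on the strand of the gene, and capitals mark the motif. The motifs searched on both strands were the E-box CACGTG, the D-box TTATGTAA, the cyclic AMP response element TGACGTCA and the letters AGGTCA. The last are only the core of a ROR element and are called ROR element here.
Nr1d1, chr10:84229455-84229704, minus strand, 1 of 2 listed starts: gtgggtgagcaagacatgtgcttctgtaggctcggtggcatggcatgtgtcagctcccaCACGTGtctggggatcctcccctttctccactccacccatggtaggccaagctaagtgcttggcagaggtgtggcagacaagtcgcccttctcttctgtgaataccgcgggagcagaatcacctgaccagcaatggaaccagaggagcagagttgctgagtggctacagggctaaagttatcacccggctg
Per2, chr9:99496994-99497243, minus strand: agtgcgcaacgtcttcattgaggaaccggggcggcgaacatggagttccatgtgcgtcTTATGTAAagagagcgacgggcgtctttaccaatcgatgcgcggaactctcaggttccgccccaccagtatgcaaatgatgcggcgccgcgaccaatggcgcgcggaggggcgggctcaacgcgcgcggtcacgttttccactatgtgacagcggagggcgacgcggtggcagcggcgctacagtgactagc
Dusp1, chr10:17184603-17184852, plus strand: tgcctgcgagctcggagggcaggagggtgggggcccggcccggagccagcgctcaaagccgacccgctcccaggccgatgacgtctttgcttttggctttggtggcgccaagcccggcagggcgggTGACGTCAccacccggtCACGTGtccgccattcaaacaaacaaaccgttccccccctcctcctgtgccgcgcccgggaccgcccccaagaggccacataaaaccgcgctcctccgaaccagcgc
Slc25a25, chr3:36116582-36116831, minus strand: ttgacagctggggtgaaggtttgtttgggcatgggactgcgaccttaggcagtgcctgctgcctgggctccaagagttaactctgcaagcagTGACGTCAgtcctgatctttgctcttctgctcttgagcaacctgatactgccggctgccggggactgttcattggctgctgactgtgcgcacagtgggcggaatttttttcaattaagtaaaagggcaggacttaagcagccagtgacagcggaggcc
An E-box stood in this Nr1d1 promoter and in that of Dusp1, a D-box in that of Per2, and a cyclic AMP response element in those of Dusp1 and Slc25a25. Of 33469 promoters in the table, 5.59% held the E-box, 0.828% the D-box, 1.59% the cyclic AMP response element and 14.1% the ROR element. Among 71 promoters of 67 named genes, 10 held the E-box, 1 the D-box, 5 the cyclic AMP response element and 6 the ROR element. Of the 21 genes that met the criterion under every treatment 16 had a promoter in the table. Of their 17 promoters, 3 held the E-box, 1 the D-box, 2 the cyclic AMP response element and 3 the ROR element. These include promoters not shown, that of Hmgn2 with an E-box and those of Ccnb1, Rgs16 and Stac3 with a ROR element. A match describes these letters and is not a measured binding site.

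Rgs16, Upp2 and Arrdc3 were among the 21 genes. Rgs16 (Entrez Gene 360857), which ends signals of G protein-coupled receptors, measured 10.74, 9.49, 8.41 and 8.55 in controls and 11.46, 11.69, 12.09 and 10.75 with naproxen. Control replicate 1 and naproxen replicate 4 were nearly level, and the other controls lay clearly lower. The log2 fold change was 2.20 ± 0.42 (SE), 1.78 ± 0.43 with the spread as a covariate and 1.38 without control replicates 3 and 4. Upp2 (Entrez Gene 295620), which splits uridine in the liver, measured 9.38, 7.93, 7.90 and 8.01 in controls and 9.97, 10.84, 10.36 and 9.58 with naproxen, a log2 fold change of 1.88 ± 0.39. Arrdc3 (Entrez Gene 309945), an arrestin-like adaptor, measured 9.67, 10.88, 10.19 and 10.18 in controls and 10.97, 11.68, 12.03 and 11.44 with naproxen. Its log2 fold change was 1.30 ± 0.26, and unlike in the genes above control replicate 1 was the lowest control.

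**Figure D4:**
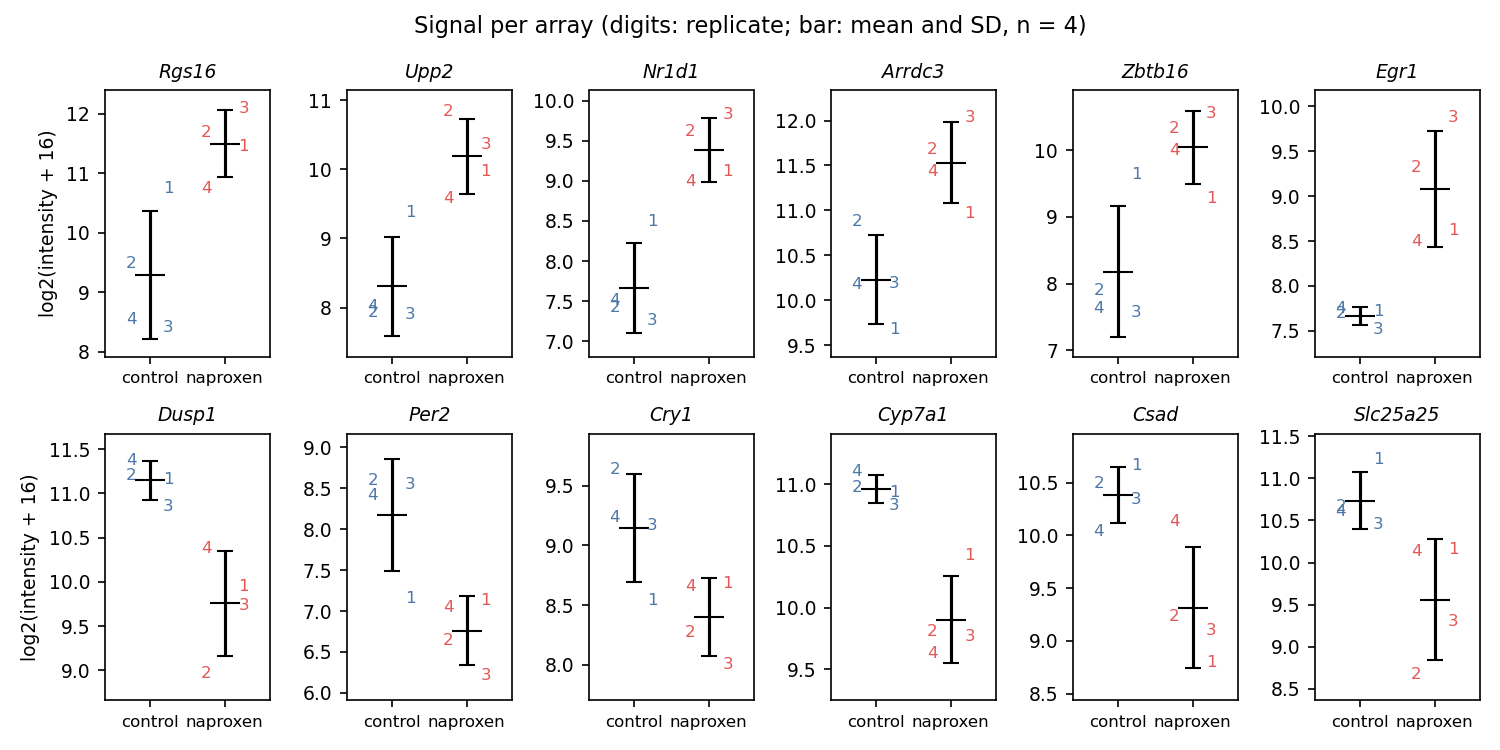
Signal of 12 genes per array (vertical axis, log2(intensity + 16)) in control (blue) and naproxen (red) livers. Each digit is the replicate number of 1 array, and the black bar is the mean with the SD (n = 4); for Upp2, Per2 and Zbtb16 control replicate 1 lies far from the other 3 controls, and for Dusp1 and Cyp7a1 the controls lie close together.

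Among early-response genes Dusp1 was lower and Egr1 higher by the criterion. Dusp1 (Entrez Gene 114856), a phosphatase that switches off MAP kinases and is induced by glucocorticoids, measured 11.15, 11.20, 10.85 and 11.37 in controls and 9.95, 8.96, 9.74 and 10.37 with naproxen. The controls were tight and all lay above all naproxen arrays. The log2 fold change was -1.39 ± 0.28 (SE), and -1.65 ± 0.29 with the spread as a covariate. Egr1 (Entrez Gene 24330), a zinc finger factor induced by growth signals, measured 7.51 to 7.74 in controls and 8.62, 9.32, 9.88 and 8.50 with naproxen. Every naproxen array was higher, with a wide spread among them, and the log2 fold change was 1.41 ± 0.47. Slc25a25 (Entrez Gene 246771), a carrier of ATP-Mg and phosphate across the inner mitochondrial membrane, measured 11.23, 10.66, 10.45 and 10.61 in controls and 10.15, 8.67, 9.30 and 10.13 with naproxen, a log2 fold change of -1.18 ± 0.33. Of 27 immediate early and growth response genes above background, 1 was higher and 1 lower by the criterion, against 1.12% and 3.87% of all probe sets above background. A log2 fold change above 0 was found in 18 of the 27, against 56.7% of all probe sets above background. Slc25a25 is not in that list. The phosphatase Dusp2 and the factor Klf6 had log2 fold changes of 0.44 ± 0.17 and 0.48 ± 0.22, and 0.28 and 0.15 with the spread as a covariate.

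Known glucocorticoid targets also split. Of 15 above background 3 were higher and 2 lower by the criterion, against 1.12% and 3.87% of all probe sets above background. The median of the list was 0.33, which was 0.19 with the spread as a covariate and -0.0048 without control replicates 3 and 4. Zbtb16 (Entrez Gene 353227), also called PLZF, measured 9.63, 7.90, 7.57 and 7.63 in controls and 9.28, 10.33, 10.55 and 10.00 with naproxen. The groups overlapped through control replicate 1, and the log2 fold change was 1.86 ± 0.42 (SE). The co-chaperone Fkbp5 had a log2 fold change of 0.84 ± 0.29, and 0.41 without control replicates 3 and 4. Igfbp1, a secreted binder of insulin-like growth factors, had 0.80 ± 0.33, and 0.44 without control replicate 3, its lowest array. The kinase Sgk1, by contrast, measured 9.71, 10.90, 10.40 and 10.78 in controls and 9.99, 9.04, 9.53 and 9.86 with naproxen, a log2 fold change of -0.85 ± 0.26. Only control replicate 1 among the controls lay within the naproxen range. Control replicate 1 was thus also the highest control for Fkbp5 (8.08 against 6.69 to 7.21) and Igfbp1 (11.78 against 9.63 to 10.72).

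In bile acid and sterol metabolism Cyp7a1 and Csad were lower and Abcg5 higher by the criterion. Cyp7a1 (Entrez Gene 25428), which starts the conversion of cholesterol to bile acids, measured 10.94, 10.97, 10.83 and 11.11 in controls and 10.42, 9.81, 9.76 and 9.63 with naproxen. The control spread was 0.11 (SD, n = 4) and no naproxen array reached the lowest control. The log2 fold change was -1.06 ± 0.25 (SE), between -1.23 and -0.96 when each array was left out, and -1.15 ± 0.27 with the spread as a covariate. Csad (Entrez Gene 60356), the decarboxylase that makes hypotaurine for the taurine coupled to bile acids, measured 10.66, 10.49, 10.34 and 10.04 in controls and 8.79, 9.23, 9.10 and 10.13 with naproxen, a log2 fold change of -1.07 ± 0.27. Naproxen replicate 4 lay among the controls and the other naproxen arrays well below them. The sterol exporter Abcg5 (Entrez Gene 114628) measured 7.15 to 8.63 in controls and 8.28 to 9.52 with naproxen, a log2 fold change of 1.17 ± 0.41 with overlapping groups. It was 0.97 ± 0.45 with the spread as a covariate, 0.46 ± 0.26 with that covariate on the 2 compared diets and 0.91 without control replicates 3 and 4. Of 22 bile acid genes above background no others had a p under 0.05, and the median was -0.05, which turned to 0.07 after median centring. The cholesterol synthesis and uptake genes had a log2 fold change above 0 in 3 of 18, against 56.7% of all probe sets above background. Their median was -0.13, and -0.31 with the spread as a covariate. Msmo1, a sterol oxidase of that pathway, was the only one with p under 0.05, at -0.41 ± 0.18.

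Genes of fatty acid oxidation were mostly higher by small amounts. Cpt1a (Entrez Gene 25757), which admits fatty acids to mitochondria, measured 10.98, 10.73, 10.53 and 10.78 in controls and 11.26, 11.28, 11.34 and 11.45 with naproxen. The groups were separate, and the log2 fold change was 0.58 ± 0.16 (SE), just under the 1.5-fold line. It was 0.51 ± 0.16 with the spread as a covariate and 0.26 ± 0.19 after scaling to one spread. That scaling moved the median of the whole brightest bin from 0.08 to -0.18. Of 25 fatty acid oxidation genes above background 22 had a log2 fold change above 0 both as measured and with the spread as a covariate, with medians of 0.22 and 0.18, against 56.7% and 45.8% of all probe sets above background. At an unadjusted p under 0.05, 4 were higher and 0 lower, and the criterion was met by 0. The reductase Decr1, the thioesterase Acot2 and the peroxisome gene Pex11a had log2 fold changes of 0.49, 0.43 and 0.42. The coactivator of fasting metabolism Ppargc1a (Entrez Gene 83516) measured 8.57, 8.49, 7.16 and 7.87 in controls and 9.05, 9.02, 9.57 and 8.81 with naproxen. The groups did not overlap, and control replicate 3 was the lowest. Its log2 fold change was 1.09 ± 0.30, but 0.72 with the spread as a covariate and 0.59 without control replicates 3 and 4.

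In the glycolysis and lipogenesis list 7 of 19 had a log2 fold change above 0, with a median of -0.13, and 2 were higher and 1 lower by the criterion. The matching shares of all probe sets above background were 56.7%, 1.12% and 3.87%. Lpin2, a phosphatidate phosphatase and transcriptional partner of Ppargc1a, measured 9.19 to 9.54 in controls and 9.78 to 10.49 with naproxen, a log2 fold change of 0.78 ± 0.20 (SE) with no overlap. Pnpla3, a lipid droplet hydrolase induced by feeding, had -0.93 ± 0.38, with control replicate 1, at 8.87, within the naproxen range of 8.29 to 9.63. The citrate lyase Acly, which supplies acetyl-CoA for fat synthesis, and the liver pyruvate kinase Pklr each had -0.43 ± 0.17. After scaling to one spread they had -0.87 and -0.90, but that scaling moved the median of the whole brightest bin from 0.08 to -0.18. Lpin1, a phosphatidate phosphatase named after its values were seen, had 1.00 ± 0.43 with overlapping groups, and 0.87 with the spread as a covariate. With the spread as a covariate, 6 genes of this list were lower and 1 higher at an unadjusted p under 0.05, against 3.03% lower and 2.12% higher among all probe sets above background.

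Among drug metabolism genes the differences were modest. The receptor Nr1i3 (Entrez Gene 65035), known as CAR, which induces cytochromes P450, measured 9.12, 9.45, 8.83 and 9.36 in controls and 9.95, 9.96, 10.50 and 9.79 with naproxen. Naproxen arrays lay above all controls, with a log2 fold change of 0.86 ± 0.27 (SE). The aryl hydrocarbon receptor Ahr measured 9.51 to 10.47 in controls and 10.41 to 10.56 with naproxen, a log2 fold change of 0.61 ± 0.22, and only control replicate 1 lay in the naproxen range. Cyp3a2 and Cyp2a3 had log2 fold changes of 0.85 ± 0.32 and 0.60 ± 0.20, which were 0.40 and 0.36 with the spread as a covariate; without control replicate 3, where it measured 5.84, the value of Cyp3a2 was 0.56. Cyp3a18, named after its values were seen, had 0.89 ± 0.36 with no overlap, and 0.78 with the covariate. These 3 belong to families of near-identical genes whose probes may share signal. Of 22 cytochromes P450 and drug receptors above background 5 were higher and 0 lower by the criterion, against 1.12% and 3.87% of all probe sets above background. With the spread as a covariate 1 of the 22 had an unadjusted p under 0.05. In the conjugating enzymes, the glycine acyltransferase Glyat had a log2 fold change of 0.54 ± 0.22. The glutathione transferase Gstp1 had 0.37 ± 0.17, which was 0.22 with the covariate, and its control mean of 6.40 lay below the background bound of 6.44. The NRF2 targets Nqo1 and Hmox1, a quinone reductase and the heme oxygenase, had 0.56 ± 0.18 and 0.40 ± 0.19, and 0 of 20 genes in that list met the criterion.

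Some mitotic genes were higher by the criterion, at faint signal. Mki67 (Entrez Gene 291234), a nuclear protein of dividing cells, measured 6.62, 6.03, 5.66 and 5.72 in controls and 7.36, 7.14, 7.08 and 6.87 with naproxen. All naproxen arrays lay above the olfactory receptor bound of 6.44, and only control replicate 1 did among the controls. Its log2 fold change was 1.11 ± 0.30 (SE). The spindle factor Tpx2 measured 7.06, 6.27, 6.41 and 6.02 against 7.52, 7.42, 7.15 and 7.19, a log2 fold change of 0.88 ± 0.22. The cytokinesis regulator Ect2 had 1.04 ± 0.25, the topoisomerase Top2a 1.13 ± 0.32 and the mitotic cyclin Ccnb1 0.83 ± 0.25, each with control replicate 1 inside the naproxen range. The control means of Mki67, Ect2 and Ccnb1, at 6.01, 6.16 and 6.23, lay below the bound. Without control replicates 3 and 4 Ect2 and Top2a had 0.62 and 0.63. Of 41 cell cycle genes above background 6 were higher and 1 lower by the criterion, against 1.12% and 3.87% of all probe sets above background. Of the 41, 25 had a log2 fold change above 0, a share near the 56.7% of all probe sets above background. With the spread as a covariate 32 did, and the median was 0.20 in place of 0.22. A filter on mean signal keeps a gene of this kind only through the arrays in which it is high, so these counts cover the members that passed it, 41 of 56 measured.

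Oxidative phosphorylation and proteasome genes had small log2 fold changes, mostly above 0. Of 46 oxidative phosphorylation genes above background 42 had a log2 fold change above 0, with a median of 0.15 and, with the spread as a covariate, 0.17. The complex I subunits Ndufv2 and Ndufb8 had 0.52 ± 0.20 and 0.40 ± 0.18 (SE), the former 0.28 with the covariate and the latter 0.26 without naproxen replicate 2. Of 28 proteasome genes 25 were above 0, with a median of 0.21 and, with the covariate, 0.23, and the core particle subunit Psma4 had 0.42 ± 0.18. None of these genes met the criterion, and 2 and 1 had an unadjusted p under 0.05 in limma. Both groups are of bright genes, with a median signal of 9.50 and 9.97. As measured, 76.8% and 68.4% of all probe sets in the brightest bins, 9 and 10, were above 0. With the spread as a covariate 39 of the 46 and 25 of the 28 genes were above 0, against 45.8% of all probe sets above background.

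Amino acid breakdown held single differences. Tdo2 (Entrez Gene 64206), which opens the ring of tryptophan, measured 11.52, 11.03, 11.45 and 11.48 in controls and 11.94, 12.01, 11.99 and 11.99 with naproxen. The naproxen arrays had an SD of 0.03 (n = 4) and lay above all controls, with a log2 fold change of 0.62 ± 0.15 (SE), which was 0.21 ± 0.25 after scaling to one spread. The tyrosine aminotransferase Tat had -0.42 ± 0.19, or -0.92 after that scaling, which moved the median of the whole brightest bin from 0.08 to -0.18. Bckdha, a subunit of the branched-chain ketoacid dehydrogenase, had -0.61 ± 0.24, which was -0.25 with the spread as a covariate. Of 33 genes of the urea cycle and amino acid breakdown 1 was higher and 2 lower by the criterion, against 1.12% and 3.87% of all probe sets above background. The median of the list was 0.03, and -0.0067 after quantile normalization. The urea cycle enzymes Cps1 and Arg1, read as hepatocyte markers, had log2 fold changes of -0.10 and 0.15, with p of 0.51 and 0.39 in limma.

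The enzymes that naproxen inhibits did not meet the criterion at the RNA level. Ptgs1 (Entrez Gene 24693), the constitutive cyclooxygenase, measured 8.51, 8.27, 8.24 and 8.06 in controls and 8.56, 8.66, 8.20 and 8.71 with naproxen, a log2 fold change of 0.26 ± 0.18 (SE). Ptgs2 (Entrez Gene 29527), the inducible form, measured 7.58, 6.99, 7.98 and 7.80 in controls and 7.08, 7.18, 6.61 and 7.49 with naproxen. Both genes had overlapping groups, and the log2 fold change of Ptgs2 was -0.49 ± 0.23, or -0.17 ± 0.19 with the spread as a covariate. Of 26 cyclooxygenase and prostaglandin genes above background 2 were higher and 2 lower at an unadjusted p under 0.05, and 0 met the criterion. The prostaglandin D synthase Hpgds had 0.53 ± 0.24, which was 0.13 with the spread as a covariate. The reductases Akr1c14 and Cbr3, which act on prostaglandins and other carbonyls, had 0.45 ± 0.20 and -0.37 ± 0.17, which were 0.27 and -0.20 with the covariate. The naproxen mean of Cbr3, at 6.32, lay below the background bound of 6.44. Akr1c14 had 0.29 without control replicate 3 and 0.06 after scaling to one spread. That scaling moved the median of the whole brightest bin from 0.08 to -0.18.

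Inflammation, stress and growth hormone lists held few differences. In the acute phase list 1 of 26 met the criterion, the interleukin 1 receptor antagonist Il1rn, which measured 8.68, 7.65, 7.62 and 7.11 in controls and 8.68, 8.31, 9.01 and 8.39 with naproxen. Its groups overlapped through control replicate 1, the log2 fold change was 0.83 ± 0.29 (SE), and it was 0.43 without control replicates 3 and 4. In the interferon and antigen presentation list 0 of 25 met it, and Ciita, the switch for class II genes, had -0.56 ± 0.19, or -0.33 with the spread as a covariate. The chaperone Hsph1 had -0.60 ± 0.23 among 15 heat shock genes with a median of 0.03, which was -0.11 with the spread as a covariate, and 0 of 21 genes of endoplasmic reticulum stress had a p under 0.05. In the growth hormone list Igfbp2, a binding protein raised in fasting, measured 7.21, 7.76, 6.38 and 6.95 in controls and 8.07, 8.07, 8.49 and 8.02 with naproxen. The groups did not overlap, and the log2 fold change was 1.09 ± 0.31, or 0.68 without control replicates 3 and 4.

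**Figure D5:**
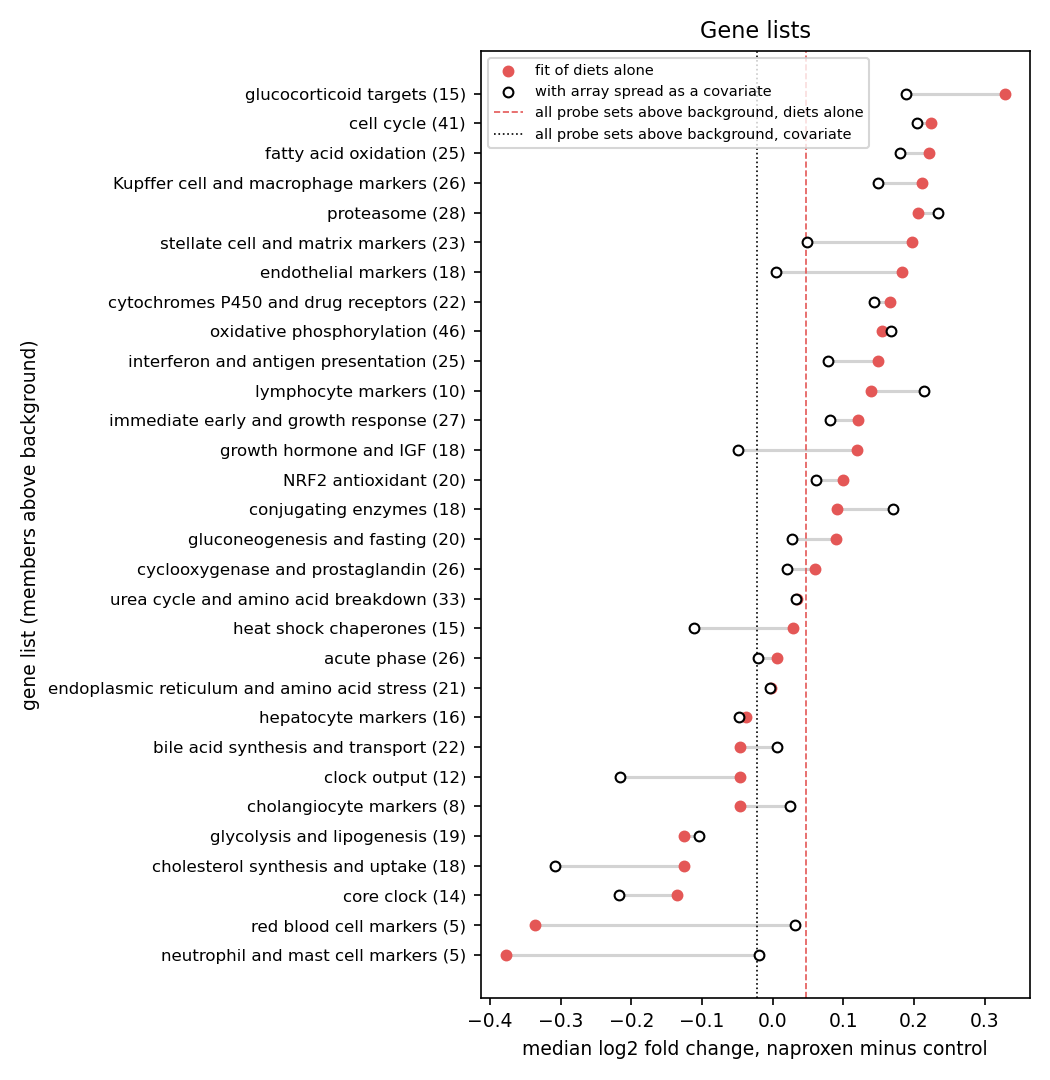
Median log2 fold change with naproxen over the members above background of 30 gene lists (horizontal axis, log2 units; number of members in brackets), as measured (red) and with array spread as a covariate (open circles), with the medians of all probe sets above background as vertical lines. The endothelial and stellate lists move from 0.18 and 0.20 to 0.00 and 0.05 with the covariate, while the cell cycle, fatty acid oxidation, proteasome and oxidative phosphorylation lists lie between 0.15 and 0.23 both ways.

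Among the remaining higher genes ranked by p, Hykk (Entrez Gene 300723), a kinase of hydroxylysine breakdown, measured 8.68, 8.77, 8.44 and 8.16 in controls and 9.59, 9.28, 9.25 and 9.37 with naproxen. The controls were all lower, and the log2 fold change was 0.86 ± 0.19 (SE), or 0.62 ± 0.17 with the spread as a covariate. The hyaluronidase Hyal3 had a log2 fold change of 0.84 ± 0.21, and the chromatin protein Hmgn2, which has many near-identical copies in the genome, 0.63 ± 0.18. The control mean of Hmgn2, at 6.37, lay below the background bound of 6.44. Rsrc2, Calcoco1, an autophagy receptor and coactivator, and Gmcl1 had 0.82 ± 0.20, 0.69 ± 0.17 and 0.63 ± 0.17. Their groups did not overlap, and with the spread as a covariate the value of Rsrc2 was 0.51.

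The remaining lower genes ranked by p had smaller differences with the spread as a covariate. The endothelin-converting enzyme Ece2 measured 7.34, 6.94, 7.84 and 7.75 in controls and 6.35, 6.61, 5.52 and 6.94 with naproxen, a log2 fold change of -1.11 ± 0.28 (SE) that was -0.74 ± 0.25 with the spread as a covariate. Naproxen replicate 3 was the lowest, and its median was also the lowest of all 8 arrays in the dimmer bins. Mrgpre, an orphan receptor of sensory neurons, had -0.89 ± 0.23 and Mslnl, a mesothelin-like gene, -0.88 ± 0.23, which were -0.67 and -0.53 with the covariate. The germ line gene Mael, the retinol-binding protein Rbp2 of the gut, the glycerol kinase-like Gk5, Bricd5, Endou and the phosphatase Ptpn14 had log2 fold changes between -0.89 and -0.66 as measured, and between -0.62 and -0.40 with the covariate. None of these 9 genes met the criterion under every treatment of spread. Stac3, a muscle adaptor protein, did, with -0.78 ± 0.28, though its groups overlapped and its naproxen mean of 6.52 lay next to the background bound. The naproxen means of Ece2, Mrgpre and Bricd5, at 6.36, 6.05 and 6.18, lay below the bound of 6.44. These genes passed the filter on mean signal through the other arrays.

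Hepatocyte markers were bright in every group. All 16 measured lay above background, with Alb at 13.62 in controls and 13.67 with naproxen, and their summed intensity was 104608 to 117541 in controls and 103445 to 111847 with naproxen. Markers of other cells had small log2 fold changes. Of 26 Kupffer cell and macrophage markers above background 25 had a log2 fold change above 0, with a median of 0.21 and, with the spread as a covariate, 0.15. Their summed intensity over 27 genes was 13824 to 18058 in controls and 14509 to 18587 with naproxen, and the Kupffer cell complement receptor Vsig4 had 0.42 ± 0.19 (SE). Of 18 endothelial markers 15 were above 0 and of 23 stellate and matrix markers 21. With the covariate 21 Kupffer cell, 10 endothelial and 14 stellate markers were above 0. Among all probe sets above background the share was 56.7%, and 45.8% with the covariate. The median signals of these lists, 8.91, 7.91 and 8.80, lay in bins 9, 8 and 9. As measured, 76.8% of all probe sets in bin 9 and 69.3% in bin 8 were above 0. The sinusoidal genes Oit3 and Clec4g and the vascular receptor Flt4 had 0.42 ± 0.15, 0.54 ± 0.22 and 0.40 ± 0.17, Flt4 0.18 with the covariate, and the pericyte gene Rgs5 had 0.71 ± 0.20 and 0.43 with the spread as a covariate. The matrix genes Dcn, Col4a1 and Ecm1 had 0.52, 0.37 and 0.35, and Dcn 0.35 without naproxen replicate 2. The summed intensity of the endothelial list was 5727 to 7619 in controls and 7279 to 8428 with naproxen, and that of the stellate list 10143 to 13194 and 12493 to 13971. In each of these lists the ranges overlapped and control replicates 3 and 4 gave the lowest endothelial sums. The part of these cells in the higher mitotic and matrix genes was not tested. Lymphocyte and cholangiocyte markers had medians of 0.14 and -0.05 over 10 and 8 genes, the latter 0.05 after quantile normalization and 0.07 after median centring, and 0 of them had a p under 0.05. Of the 16 neutrophil and mast cell and 6 red blood cell markers 5 each lay above background, with medians of -0.38 and -0.34 that were -0.02 and 0.03 with the covariate, and the neutrophil collagenase Mmp8 had -0.54 ± 0.18, or -0.31 with the covariate.

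The NO-naproxen livers give values at another dose and share the control arrays, so they are set beside the naproxen values without a comparison. Rgs16 had a log2 fold change against control of 2.20 with naproxen and 1.77 with NO-naproxen, Upp2 1.88 and 1.74, Nr1d1 1.72 and 1.73, and Dusp1 -1.39 and -1.38. Per2 had -1.42 and -0.99, Cyp7a1 -1.06 and -0.40, and Mki67 1.11 and 0.21. In the NO-naproxen arrays Cyp7a1 measured 9.98, 11.10, 10.98 and 10.18, with a pair of arrays at the control level and a pair below it.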

How the data were processed

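Liver RNA of 12 rats was measured on whole-transcript arrays. The deposited values are linear probe set intensities from Affymetrix Expression Console 1.1.1 on build rn4, per the submitters' processing notes, and no source used here gives how they were summarised or normalized. Because values reached below 1, log2(intensity + 16) was taken. Array medians of the intensity lay between 89.8 and 118, and correlations between arrays between 0.908 and 0.981. Precision is limited by how many arrays there are, with a median 95% interval of 0.43 to either side of a log2 fold change above background.

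Groups and replicate numbers came from the titles. All 12 arrays entered 1 limma 3.58.1 fit (lmFit and eBayes, R 4.3.3, 2-sided, 3 diets, no covariate), adjusted by Benjamini-Hochberg over 19418 probe sets and checked on simulated data. Of these, 13327 carried 1 symbol, 620 several and 5471 none, and 13232 were matched to RefSeq genes. A gene with several probe sets is shown by the brightest. Background was set by 970 olfactory and vomeronasal receptor probe sets. Named genes are the 12 higher and 12 lower of smallest p past the criterion without overlap and above background, up to 4 members with p under 0.05 of each of 30 lists, the 2 cyclooxygenases, and the named genes that met the criterion under every treatment of spread; others are said to be picked after their values were seen. The comparison, members and lists were chosen with earlier results of these data known. Alternatives covered the added constant, normalization, array spread, weights, filters, a replicate block and leaving out single arrays. The replicate numbers were not treated as pairs in the main fit. Figures used matplotlib 3.10.9 in Python 3.11.15.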

Additional observations from a re-analysis of the deposited data

Results flagged for a closer look

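Over the named genes and 4 array measures, 170 groups of 4 arrays were examined for 1 array far from the other 3. Chance flags about 1 in 20 of these, and 7 were found, all in named genes. Control replicate 1 stood apart for Upp2 at 9.38 (others 7.90 to 8.01), for Per2 at 7.15 (others 8.41 to 8.60) and for Zbtb16 at 9.63 (others 7.57 to 7.90), each time towards the naproxen arrays. Control replicate 2 stood apart for Tdo2 at 11.03 (others 11.45 to 11.52), away from them. Naproxen replicate 1 stood apart for Rsrc2 at 9.02 (others 8.60 to 8.63) and for Tat at 12.35 (others 11.82 to 11.87), and naproxen replicate 3 for Igfbp2 at 8.49 (others 8.02 to 8.07). All values are log2(intensity + 16).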

How the results depend on the processing

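Over 21 alternatives the 81 named genes kept the direction of their log2 fold change in all 1701 values, and in 1698 the side of the adjusted threshold. The exceptions were Rgs16, Per2 and Zbtb16 without control replicate 1. Apart from the 2 cyclooxygenases these genes were chosen by their p in the same arrays. For 21 of them the choice also used 7 of these alternatives, so the kept directions were largely set by the choice and are no further test. More than 1.5 times smaller were 31 of the 81 without the 2 narrowest arrays, 23 with the spread as a covariate (25 on 2 diets), 24 with the olfactory median, 10 after scaling to one spread, 1 after quantile normalization and 0 after median centring; 5 were that much larger after scaling. The number past the adjusted threshold was 0 under every alternative except leaving out single arrays, where it ranged from 0 to 3 (3 without control replicate 1, 2 without control replicate 2). The criterion above background gave 135 higher and 466 lower. The higher count was 50 with an added constant of 64, 219 after quantile normalization, 360 after median centring and 234 after scaling to one spread. It was 75 with the spread as a covariate (157 on 2 diets) and 157 with the olfactory median as a covariate. Without the 2 narrowest arrays it was 63, and at 2-fold 15. The lower count was 113 with the constant of 64, 228 after median centring, 79 with the spread as a covariate (76 on 2 diets), 53 with the olfactory median as a covariate, 42 without the 2 narrowest arrays, 140 above the 99th percentile bound and 29 at 2-fold. With 1 array left out the higher count ranged from 80 (without control replicate 4) to 393 (without control replicate 2), with 204 and 218 without control replicate 1 and naproxen replicate 3. The lower count ranged from 159 (without naproxen replicate 3) to 1218 (without control replicate 2), with 182, 166, 271 and 915 without control replicates 3 and 4 and naproxen replicates 1 and 4. The causes were not tested. With a replicate block the counts were 0, 140 and 505. Deviations of arrays with the same number correlated at 0.05, -0.38, -0.26 and 0.33, and those with different numbers at -0.50 to 0.46. With 4 arrays per group these values cannot settle whether the numbers pair the samples. Signals below the olfactory receptor bound of 6.44 limit what dim genes can show.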
